A study of Mus musculus with 8 samples.

Results

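The genes described here, chosen with earlier results of these data known, are 42 mouse genes of mitosis. They were listed by name for their known roles in driving a cell through division. Of these, 41 had a transcript cluster, the set of probes that reads one transcription unit, that carried their symbol and no other, 1 cluster each. Ccnb1 had none under this rule and was not analysed here. The 41 stand among 17501 genes measured in the same way. RNA came from mouse embryonic fibroblasts (MEFs), connective tissue cells grown out of dissociated embryos, and was read on 8 Affymetrix arrays. Cells with normal Smurf2 (wild-type) were compared with Smurf2-/- cells, which lack the HECT-type ubiquitin ligase Smurf2. Both genotypes came on the C57B6 background and on a mixed 129SVJ/NIH Black Swiss background, here called mixed BL. Early arrays were of passage 7 in C57B6 and passage 6 in mixed BL, and late arrays of passage 28 and passage 33. Each combination of genotype, background and passage class was measured on 1 array, so that 4 arrays stand at each level of each factor. Every C57B6 culture came from 1 embryo, whereas mixed BL cultures were pools, of 3 embryos for Smurf2-/- and 2 for wild-type cells. The sample descriptions give embryonic day 14.5 and the growth protocol day 11.5. The labels do not state the sex of the embryos, and do not say whether early and late arrays came from the same culture. The p-values therefore reflect how these 8 arrays differ, which may be in part technical.

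Mitosis genes work as a periodic programme. Cyclin B and cyclin A bound to Cdk1 push the cell into mitosis, Aurora and Polo-like kinases build the spindle, kinetochores tie chromosomes to it, the spindle checkpoint holds the anaphase-promoting complex (APC/C) until all are attached, and cytokinesis parts the daughter cells. Most of these genes are switched on together in G2 and M phase by the MuvB complex with B-Myb and FoxM1 and are repressed in resting cells by the DREAM complex, which reaches them through a promoter element, the cell cycle genes homology region (CHR), with NF-Y bound at nearby CCAAT boxes. Their RNA is therefore commonly read as a measure of how many cells in a culture are dividing. In RNA from a whole culture, more dividing cells and more of these transcripts per dividing cell cannot be told apart.

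The members were high together on the late Smurf2-/- arrays, as given below, and whether they share control was not tested. Their promoters were searched for these elements in a RefSeq table of assembly GRCm38.p6. It gives 250 bases before to 50 bases after each start. The table matched 34 of the 41 members in 36 windows. Ccna2, Cdc25c, Foxm1, Aurkb, Incenp, Tpx2 and Kif20a had no match. The 100 bases before the start are shown for 7 members that hold both a CHR and a CCAAT box there, and for Mad2l1, which holds neither, as a contrast. All are written 5′ to 3′ in the direction of the gene. Capitals mark TTTGAA or TTTAAA (the CHR) and CCAAT, or their reverse complements TTCAAA and ATTGG.
Cdk1 (chr10:69352913-69353012, minus strand): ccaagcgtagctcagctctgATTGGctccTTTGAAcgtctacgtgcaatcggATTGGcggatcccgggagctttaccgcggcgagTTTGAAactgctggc
Plk1 (chr7:122159335-122159434, plus strand): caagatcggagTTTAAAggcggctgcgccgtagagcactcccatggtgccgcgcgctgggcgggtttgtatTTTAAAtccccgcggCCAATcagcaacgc
Cdc20 (chr4:118437344-118437443, minus strand): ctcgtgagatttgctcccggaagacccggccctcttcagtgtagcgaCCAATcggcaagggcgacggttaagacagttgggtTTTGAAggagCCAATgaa
Ube2c (chr2:164769829-164769928, plus strand): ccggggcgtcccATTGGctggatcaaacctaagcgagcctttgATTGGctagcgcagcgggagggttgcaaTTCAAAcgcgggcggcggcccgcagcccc
Top2a (chr11:99024190-99024289, minus strand): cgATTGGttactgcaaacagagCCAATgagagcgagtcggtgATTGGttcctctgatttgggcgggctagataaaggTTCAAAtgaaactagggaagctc
Cenpn (chr8:116921640-116921739, plus strand): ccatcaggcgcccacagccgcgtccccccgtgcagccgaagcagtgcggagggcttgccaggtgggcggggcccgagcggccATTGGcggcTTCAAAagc
Kif11 (chr19:37376282-37376381, plus strand): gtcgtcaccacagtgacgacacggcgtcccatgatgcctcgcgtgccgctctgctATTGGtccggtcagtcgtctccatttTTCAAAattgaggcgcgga
Mad2l1 (chr6:66535121-66535220, plus strand): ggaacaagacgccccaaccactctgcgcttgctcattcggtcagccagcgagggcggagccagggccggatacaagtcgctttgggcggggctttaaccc

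A CHR in either form was present on either strand in 31 of the 36 member windows (86.1%), against 27.6% of all 32851 windows in the table. Counted by gene, 29 of 34 members (85.3%) held it, against 23.9% of the 13736 measured genes with a window. The TTTGAA form was in 79.4% of the 34 members and in 15.2% of the measured genes, and the TTTAAA form, which reads the same on both strands, in 26.5% and 11.6%. A CCAAT box was found in 76.5% of members and 41.6% of measured genes, and both elements in 70.6% and 9.61%. The CHR lay close to the start: within 50 bases on either side, a window chosen after the positions were seen, 76.5% of members and 6.73% of measured genes held one, whereas in the 150 bases before the start the shares were 38.2% and 12.1%. Other motifs were rare: an E2F site (TTCGCGC or TTGGCGC) was in 11.8% of members and 6.80% of measured genes, and a forkhead site (TGTTTAC) in 5.88% and 3.31%. All motifs were searched on both strands and counted separately; TTGGCGC can share bases with a CCAAT box on the other strand, and the CHR forms can share end bases. A match describes the letters only.

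The values are log2 intensities from which the median of the same cluster over the 8 arrays had been subtracted, so a value of 1 is a doubling over that median and levels of different genes cannot be compared. In each gene sentence the wild-type values come in the order early C57B6, late C57B6, early mixed BL and late mixed BL, and the Smurf2-/- values in the order C57B6, mixed BL. Smurf2 stood at 0.71, 0.64, 0.96 and 0.43 in wild-type cells, -0.43 and -0.70 in early Smurf2-/- cells, and -1.21 and -1.19 in late Smurf2-/- cells. All Smurf2-/- arrays were below all wild-type arrays, with a difference of -1.57 ± 0.12 (SE, n = 4 against 4, limma adjusted p = 0.0484). The Y-linked gene Uty and the X-inactivation RNA Xist split the same 4 arrays from the other 4, at 2.35 ± 0.13 and -4.36 ± 0.33, so sex and genotype cannot be told apart. That split was present at early passage too, where Uty differed by 2.62. The step size of the stored numbers shows that 11 of 18 fibroblast markers lay above a log2 intensity of 8 on all arrays, against 22.8% of all genes and 0 of the measured macrophage, endothelial, epithelial and muscle markers and 1 of 7 neural markers; of the members 13 of 41 (31.7%) did. The late Smurf2-/- arrays had an SD over all genes of 0.38 in C57B6 and 0.36 in mixed BL, against 0.22 to 0.35 on the other arrays, and the late-passage values below rest on them.

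Mitosis genes had their highest values in late-passage cells without Smurf2, on both backgrounds, although no member passed the adjusted threshold in any test. Over the 41 members the median value was 0.99 in late C57B6 Smurf2-/- cells and 0.57 in late mixed BL Smurf2-/- cells. On the other 6 arrays the medians lay between -0.08 and -0.0071. In 39 of the 41 members (95.1%) both late Smurf2-/- arrays lay above all 6 others, against 10.3% of all genes. Among the 4 arrays of a background, the late Smurf2-/- array was the highest for all 41 members in C57B6 and for 40 in mixed BL, against 49.0% and 24.9% of all genes. The 2 members outside the 39, both through the mixed BL array, were Spc25 and Kif11. Of these only Spc25 was not highest among the 4 mixed BL arrays. No member had both late Smurf2-/- arrays below all others, against 8.13% of all genes. On the 6 other arrays the members ranged from -0.63 to 0.34.

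**Figure D1:**
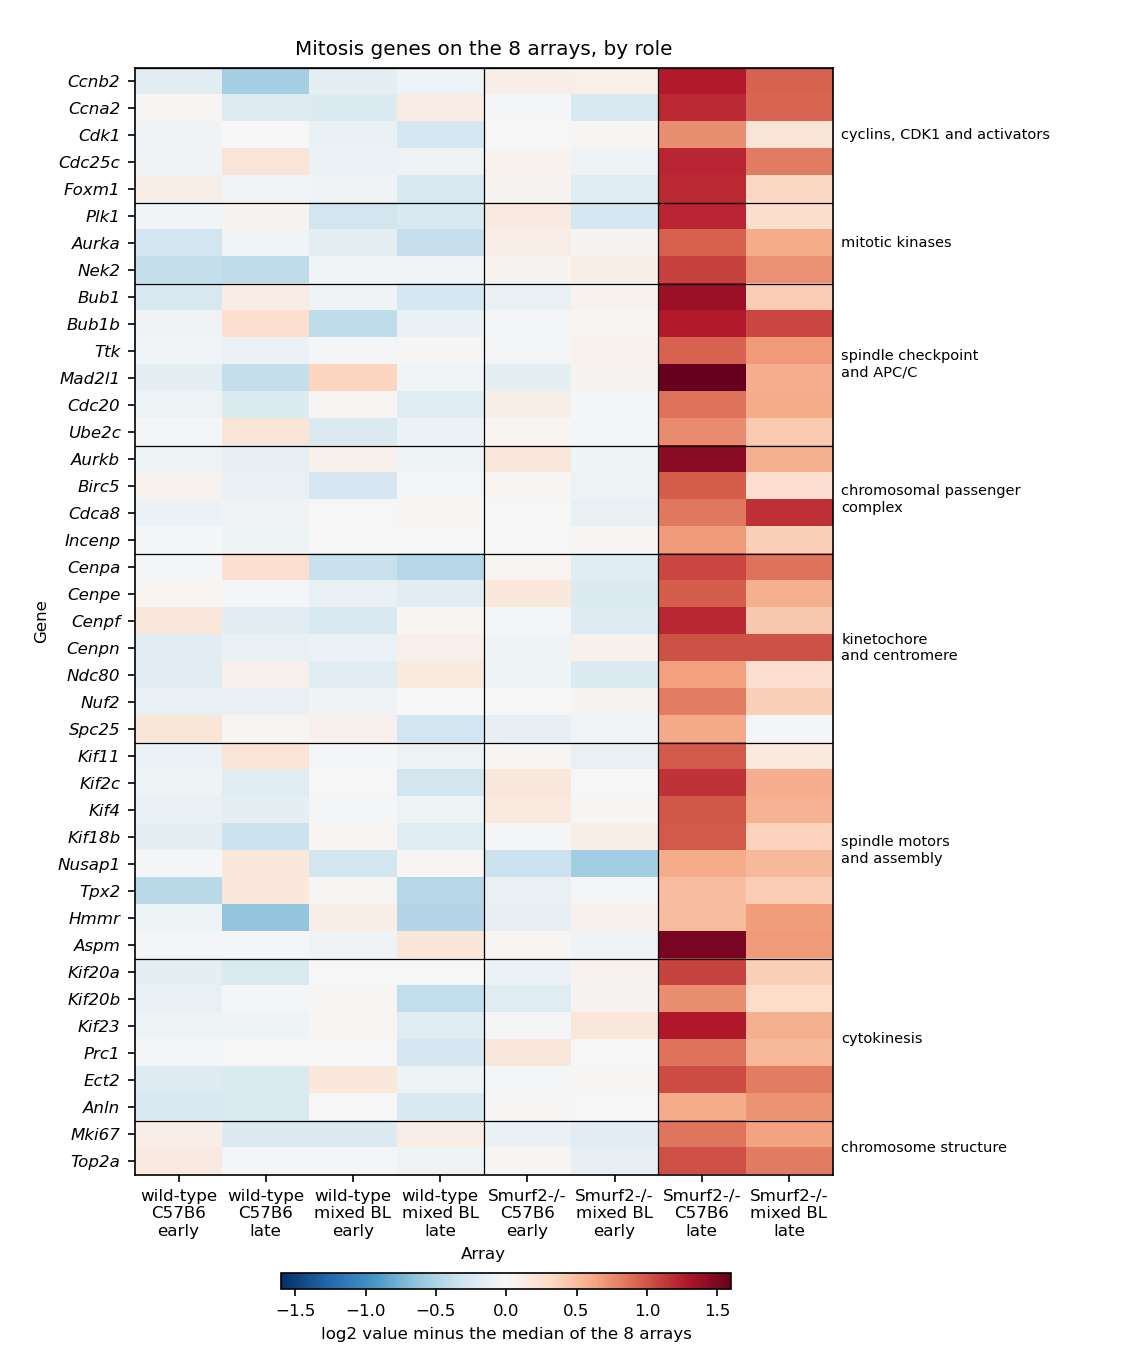
The 41 measured mitosis genes (rows, grouped by role) on the 8 arrays (columns), coloured by log2 value minus the gene's median over the arrays. The late Smurf2-/- columns are red throughout, apart from Spc25 at -0.02 in mixed BL, and the other 6 columns hold values between -0.63 and 0.34.

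Set against wild-type cells of the same passage class, all 41 members were higher in late Smurf2-/- cells, with a median difference of 0.91, or 1.88-fold, against a median of 0.02 over all genes, of which 56.2% were above 0. The differences ran from 0.35 (Ndc80) to 1.41 (Ccnb2). They were above 1 in 14 members, from 0.5 to 1 in 24 and below 0.5 in 3. Limma called 0 members and 0 of 17501 genes (0%) after Benjamini-Hochberg adjustment, with adjusted p from 0.101 to 0.433 for the members. At an unadjusted p under 0.05, 37 of the 41 were higher, against 6.39% of all genes, and 0 lower, against 6.97%. At early passage the median genotype difference was 0.05, with 30 members above 0 and 11 below, against 50.7% of all genes above 0. It was -0.05 without the early C57B6 wild-type array. There limma called 0 members, against 0.00571% of all genes (1 gene), and at an unadjusted p under 0.05 found 0 members higher (0.383% of all genes) and 1 lower (0.703%), which was Nusap1.

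The difference between these differences was tested as an interaction of genotype with passage. All 41 members had a positive interaction, with a median of 0.85 against 0.02 over all genes. Of all genes 54.1% were above 0. Limma called 0 members and 0% of all genes for the interaction, with member adjusted p from 0.701 up. At an unadjusted p under 0.05, 31 members were positive, against 2.85% of all genes, and 0 negative, against 2.5%. That count was 18 without the early C57B6 Smurf2-/- array, 18 without the early mixed BL wild-type array and 20 without the late C57B6 wild-type array, with all 41 interactions still above 0.

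**Figure D2:**
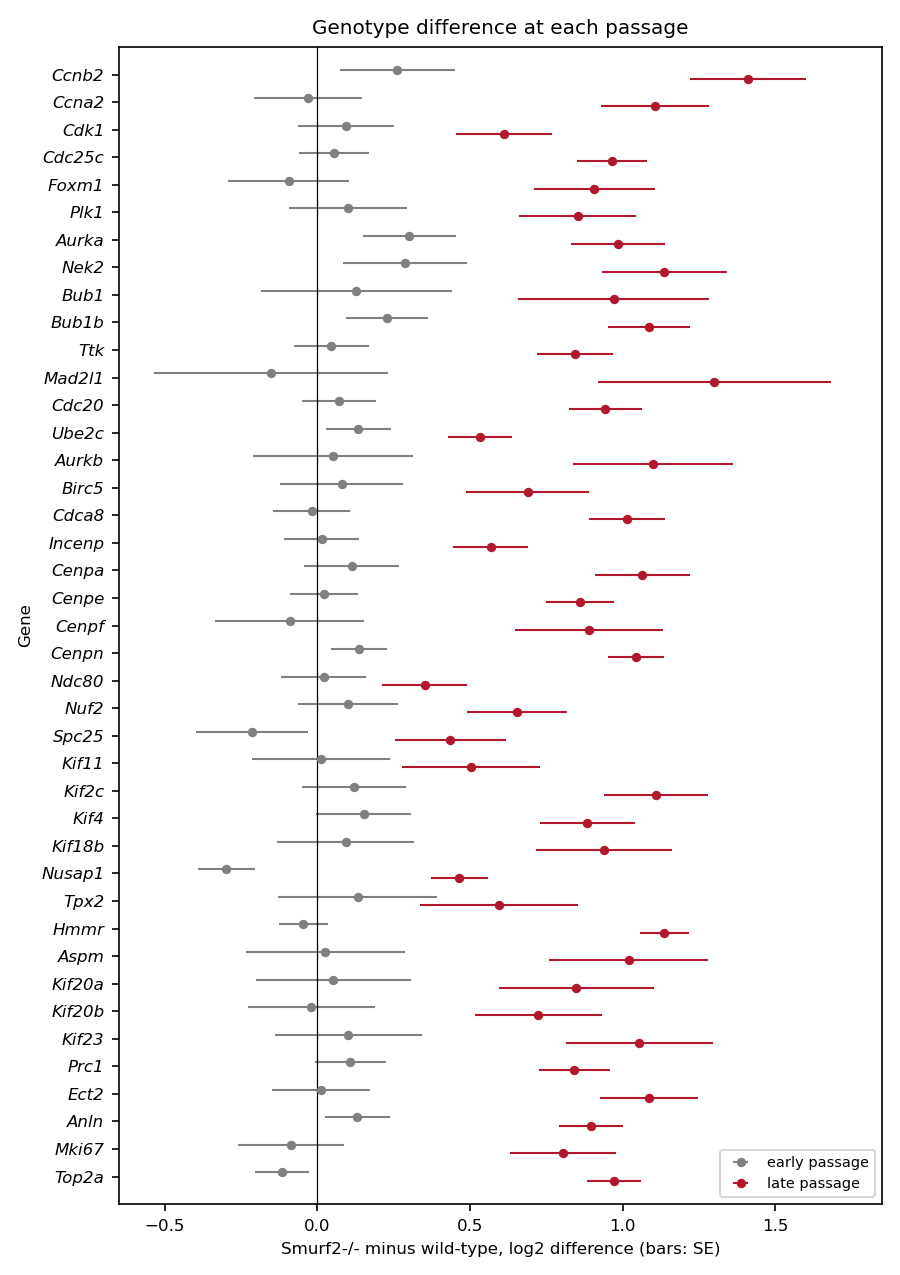
Smurf2-/- minus wild-type log2 difference of each mitosis gene (rows) at early passage (grey) and late passage (red), with bars showing the SE from limma (n = 2 against 2 arrays). The red points run from 0.35 to 1.41, and each lies to the right of its gene's grey point, which run from -0.30 to 0.30.

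Cyclins, Cdk1 and its activators came first in order of role, and the 5 measured members had a median late difference of 0.96. Ccnb2 stood at -0.19, -0.53, -0.15 and -0.09 in wild-type cells, 0.10 and 0.09 in early Smurf2-/- cells, and 1.26 and 0.94 in late Smurf2-/- cells. The late Smurf2-/- arrays of this cyclin B gene were above all others, and the late wild-type C57B6 array was lowest. Its late genotype difference was 1.41 ± 0.19 (SE, n = 2 against 2, limma adjusted p = 0.128), or 2.66-fold, the largest among the members, and the early difference was 0.26 ± 0.19. Ccna2 stood at 0.01, -0.21, -0.22 and 0.12 in wild-type cells, -0.01 and -0.25 in early Smurf2-/- cells, and 1.19 and 0.93 in late Smurf2-/- cells. Ccna2, the cyclin A gene of S and G2 phase, thus had both late Smurf2-/- values well above the rest, with no overlap, and a late difference of 1.11 ± 0.18 (limma adjusted p = 0.13). Cdc25c stood at -0.05, 0.20, -0.09 and -0.08 in wild-type cells, 0.05 and -0.09 in early Smurf2-/- cells, and 1.22 and 0.84 in late Smurf2-/- cells. Cdc25c encodes a phosphatase that activates Cdk1, and differed by 0.96 ± 0.12 at late passage (limma adjusted p = 0.124) and by 0.05 ± 0.12 at early passage.

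Cdk1 stood at -0.06, 0.0002, -0.11 and -0.28 in wild-type cells, -0.0002 and 0.02 in early Smurf2-/- cells, and 0.74 and 0.21 in late Smurf2-/- cells. For this catalytic kinase the C57B6 array was clearly apart and the mixed BL array lay only a little above the other 6, and the late difference was 0.61 ± 0.16 (limma adjusted p = 0.225), the smallest of the group. Foxm1 stood at 0.10, -0.05, -0.06 and -0.24 in wild-type cells, 0.05 and -0.19 in early Smurf2-/- cells, and 1.19 and 0.33 in late Smurf2-/- cells. Foxm1, the forkhead factor that drives G2 and M genes, showed the same order of the late arrays, C57B6 well above mixed BL and both above the rest, with a late difference of 0.91 ± 0.20 (limma adjusted p = 0.19). Without the late C57B6 Smurf2-/- array the differences of Cdk1 and Foxm1 were 0.40 and 0.58.

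The mitotic kinase genes Plk1, Aurka and Nek2 differed by 0.85 ± 0.19, 0.98 ± 0.15 and 1.14 ± 0.20 at late passage (limma adjusted p of 0.198, 0.128 and 0.148). Plk1 stood at -0.04, 0.04, -0.29 and -0.24 in wild-type cells, 0.15 and -0.28 in early Smurf2-/- cells, and 1.22 and 0.28 in late Smurf2-/- cells. Plk1 acts at mitotic entry, in spindle assembly and in cytokinesis, and its late Smurf2-/- arrays were the highest, C57B6 well above mixed BL. Its late difference was 0.54 without the C57B6 one. Aurka stood at -0.30, -0.05, -0.15 and -0.37 in wild-type cells, 0.10 and 0.05 in early Smurf2-/- cells, and 0.95 and 0.60 in late Smurf2-/- cells. Nek2 stood at -0.39, -0.41, -0.05 and -0.04 in wild-type cells, 0.04 and 0.10 in early Smurf2-/- cells, and 1.10 and 0.73 in late Smurf2-/- cells. In Aurka, the centrosomal Aurora kinase, and Nek2, which splits centrosomes, no wild-type array reached any Smurf2-/- array, early ones included. Their early differences, 0.30 ± 0.15 and 0.29 ± 0.20, were the largest positive ones of the members, each with a limma adjusted p of 1.

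Genes of the spindle checkpoint and the APC/C numbered 6, with a median late difference of 0.96. Bub1b stood at -0.06, 0.27, -0.40 and -0.10 in wild-type cells, -0.03 and 0.03 in early Smurf2-/- cells, and 1.27 and 1.07 in late Smurf2-/- cells. Bub1b, which encodes the checkpoint kinase-like inhibitor BubR1, had 2 high late Smurf2-/- arrays of similar value, and differed by 1.09 ± 0.13 (limma adjusted p = 0.124). Cdc20 stood at -0.08, -0.22, 0.02 and -0.19 in wild-type cells, 0.09 and -0.02 in early Smurf2-/- cells, and 0.87 and 0.60 in late Smurf2-/- cells. Ttk stood at -0.04, -0.09, -0.02 and 0.02 in wild-type cells, -0.03 and 0.06 in early Smurf2-/- cells, and 0.94 and 0.68 in late Smurf2-/- cells. Cdc20, the APC/C activator that the checkpoint inhibits, and Ttk, the kinase Mps1 that starts checkpoint signalling, had no overlap between the late Smurf2-/- arrays and the other 6, at differences of 0.94 ± 0.12 and 0.84 ± 0.12 (limma adjusted p = 0.128 for each). Of the others, the checkpoint kinase gene Bub1 differed by 0.97 ± 0.31, the checkpoint effector gene Mad2l1 by 1.30 ± 0.38 and Ube2c, the ubiquitin-conjugating enzyme of the APC/C, by 0.53 ± 0.11. Mad2l1 held the highest value of any member on any array, 1.59 in late C57B6 Smurf2-/- cells, while its early wild-type mixed BL array, at 0.34, was the highest of all values outside the late Smurf2-/- arrays.

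The chromosomal passenger complex, Aurora B with its 3 partners, senses and corrects faulty attachments. Aurkb stood at -0.06, -0.13, 0.06 and -0.07 in wild-type cells, 0.18 and -0.07 in early Smurf2-/- cells, and 1.44 and 0.57 in late Smurf2-/- cells. The kinase gene Aurkb was far higher on the C57B6 than on the mixed BL late Smurf2-/- array, and differed by 1.10 ± 0.26 (limma adjusted p = 0.206), or 0.68 without the C57B6 one. Cdca8 stood at -0.10, -0.05, 0.01 and 0.03 in wild-type cells, -0.01 and -0.11 in early Smurf2-/- cells, and 0.84 and 1.17 in late Smurf2-/- cells. Cdca8, which encodes borealin, had the opposite order of these arrays, with mixed BL the higher, and differed by 1.01 ± 0.13 (limma adjusted p = 0.124). Incenp stood at -0.02, -0.07, 0.0011 and -0.0011 in wild-type cells, -0.01 and 0.02 in early Smurf2-/- cells, and 0.68 and 0.38 in late Smurf2-/- cells. The scaffold gene Incenp varied by less than 0.1 over the other 6 arrays, and differed by 0.57 ± 0.12 (limma adjusted p = 0.188), beside 0.69 ± 0.20 for Birc5, the survivin gene.

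At the kinetochore and centromere 7 members had a median late difference of 0.86. Cenpn stood at -0.18, -0.12, -0.10 and 0.08 in wild-type cells, -0.07 and 0.07 in early Smurf2-/- cells, and 1.02 and 1.02 in late Smurf2-/- cells. Cenpn, whose product reads the centromeric nucleosome, was equally high on both late Smurf2-/- arrays, and differed by 1.04 ± 0.09 (limma adjusted p = 0.101). Cenpa stood at -0.03, 0.26, -0.36 and -0.46 in wild-type cells, 0.03 and -0.19 in early Smurf2-/- cells, and 1.07 and 0.87 in late Smurf2-/- cells. Cenpe stood at 0.03, -0.03, -0.12 and -0.17 in wild-type cells, 0.17 and -0.21 in early Smurf2-/- cells, and 0.97 and 0.56 in late Smurf2-/- cells. Cenpa, the centromeric histone H3 variant, and Cenpe, a kinetochore motor, were both without overlap, although the 6 other values of Cenpa were spread widely, and differed by 1.07 ± 0.16 and 0.86 ± 0.11 (limma adjusted p = 0.128 for each). Cenpf, a large outer kinetochore protein, and Nuf2, a subunit of the Ndc80 complex that binds microtubules, differed by 0.89 ± 0.24 and 0.65 ± 0.16.

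The other subunits of the Ndc80 complex among the members had the smallest late differences of all. Ndc80 stood at -0.17, 0.07, -0.17 and 0.16 in wild-type cells, -0.07 and -0.22 in early Smurf2-/- cells, and 0.66 and 0.27 in late Smurf2-/- cells. Spc25 stood at 0.19, 0.02, 0.06 and -0.30 in wild-type cells, -0.13 and -0.04 in early Smurf2-/- cells, and 0.60 and -0.02 in late Smurf2-/- cells. Ndc80 had both late Smurf2-/- arrays above the rest, by a narrow margin in mixed BL, whereas the mixed BL value of Spc25 fell inside the range of the other arrays. Their late differences were 0.35 ± 0.14 and 0.44 ± 0.18 (limma adjusted p of 0.379 and 0.403). Without the late C57B6 Smurf2-/- array they were 0.17 and 0.19, and without that of mixed BL 0.54 and 0.69. That of Ndc80 was 0.22 without the late C57B6 wild-type array.

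Spindle motors and assembly factors, 8 genes, had a median late difference of 0.91 and the widest mix of patterns. Hmmr stood at -0.07, -0.63, 0.11 and -0.46 in wild-type cells, -0.13 and 0.07 in early Smurf2-/- cells, and 0.51 and 0.67 in late Smurf2-/- cells. Hmmr, which encodes a spindle assembly protein that also binds hyaluronan, had the late wild-type arrays lowest and the late Smurf2-/- arrays highest, with the early arrays of both genotypes between. Its late genotype difference of 1.14 ± 0.08 (limma adjusted p = 0.101) stood beside a passage difference of 0.62 ± 0.08 in Smurf2-/- cells and -0.56 ± 0.08 in wild-type cells. Nusap1 stood at -0.02, 0.17, -0.29 and 0.02 in wild-type cells, -0.35 and -0.55 in early Smurf2-/- cells, and 0.59 and 0.52 in late Smurf2-/- cells. Nusap1, a spindle microtubule bundler, had the early Smurf2-/- arrays lowest instead. It differed between genotypes by -0.30 ± 0.09 at early and 0.47 ± 0.09 at late passage (limma adjusted p of 1 and 0.164), and between passages by 1.01 ± 0.09 in Smurf2-/- cells.

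Kif2c stood at -0.07, -0.19, 0.0071 and -0.29 in wild-type cells, 0.18 and -0.0071 in early Smurf2-/- cells, and 1.16 and 0.58 in late Smurf2-/- cells. Kif4 stood at -0.11, -0.14, -0.01 and -0.08 in wild-type cells, 0.16 and 0.01 in early Smurf2-/- cells, and 0.99 and 0.56 in late Smurf2-/- cells. Kif2c, a kinesin that takes microtubules apart to correct attachments, and Kif4, a kinesin carried on chromosome arms, were high on the late Smurf2-/- arrays without overlap, at 1.11 ± 0.17 and 0.89 ± 0.16 (limma adjusted p of 0.128 and 0.143). Kif4 is the only member on the X chromosome. Among the others, Kif11, the motor that pushes spindle poles apart, differed by 0.50 ± 0.23, with 0.16 on the late mixed BL Smurf2-/- array, below the 0.22 of late wild-type C57B6. The kinesin gene Kif18b differed by 0.94 ± 0.22, Tpx2, which activates Aurora A on the spindle, by 0.60 ± 0.26, and Aspm, a spindle pole protein, by 1.02 ± 0.26.

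Cytokinesis genes numbered 6, with a median late difference of 0.87. Anln stood at -0.25, -0.23, -0.0003 and -0.25 in wild-type cells, 0.02 and 0.0003 in early Smurf2-/- cells, and 0.59 and 0.72 in late Smurf2-/- cells. Ect2 stood at -0.20, -0.24, 0.17 and -0.08 in wild-type cells, -0.01 and 0.01 in early Smurf2-/- cells, and 1.05 and 0.81 in late Smurf2-/- cells. Anln, the scaffold of the contractile ring, and Ect2, which activates RhoA at the division plane, had no overlap between the late Smurf2-/- arrays and the rest, and Anln was the higher in mixed BL. They differed by 0.90 ± 0.11 and 1.09 ± 0.16 (limma adjusted p of 0.124 and 0.128). Prc1 stood at -0.02, -0.01, -0.0049 and -0.27 in wild-type cells, 0.18 and 0.0049 in early Smurf2-/- cells, and 0.87 and 0.53 in late Smurf2-/- cells. Prc1 bundles the microtubules of the spindle midzone, had no overlap between the late Smurf2-/- arrays and the rest, and differed by 0.84 ± 0.12 (limma adjusted p = 0.128). The midzone kinesin genes Kif20a, Kif20b and Kif23 differed by 0.85 ± 0.25, 0.72 ± 0.21 and 1.06 ± 0.24.

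Mki67 and Top2a, which act on chromosome structure and are the usual markers of cycling cells, lay within the range of the other members. Mki67 stood at 0.10, -0.21, -0.22 and 0.11 in wild-type cells, -0.10 and -0.19 in early Smurf2-/- cells, and 0.85 and 0.65 in late Smurf2-/- cells. Top2a stood at 0.14, -0.03, -0.02 and -0.05 in wild-type cells, 0.02 and -0.14 in early Smurf2-/- cells, and 1.03 and 0.84 in late Smurf2-/- cells. Both were highest on the late Smurf2-/- arrays, without overlap, and the early arrays of both genotypes overlapped. Mki67, the Ki-67 protein that coats mitotic chromosomes, differed by 0.80 ± 0.17 at late passage (limma adjusted p = 0.186) and -0.09 ± 0.17 at early passage. Top2a, the topoisomerase that untangles sister chromatids, differed by 0.97 ± 0.09 (limma adjusted p = 0.101) and -0.12 ± 0.09.

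Passage was then compared within each genotype, which shares arrays with the genotype comparisons. In wild-type cells the members had a median late minus early difference of -0.03, with 18 above 0 and 23 below, against 53.9% of all genes above 0. The median was 0.05 without the late C57B6 or without the early mixed BL wild-type array. In C57B6 alone 20 of 41 were above 0 (50.3% of all genes) and in mixed BL 17 (53.6%), 10 members (29.5% of all genes) being above 0 in both and 14 (25.4%) below 0 in both. Limma called 0 of them and 0% of all genes; at an unadjusted p under 0.05 Nusap1 was higher at 0.25 ± 0.09 (2.35% of all genes) and Hmmr lower at -0.56 ± 0.08 (4.89%). In Smurf2-/- cells all 41 were higher at late passage, against 57.8% of all genes, with a median of 0.80 or 1.74-fold. The passage difference ran from 0.38 (Spc25) to 1.19 (Ccna2). Limma called 0 members and 0% of all genes, with member adjusted p from 0.102 to 0.437, and at an unadjusted p under 0.05 39 were higher, against 6.06% of all genes, and 0 lower, against 8.71%. The count was 25 without the early C57B6 Smurf2-/- array.

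The 2 backgrounds gave the same direction in late cells and different sizes. Background cannot be told apart here from passage number, 28 against 33 in late cells, or from single embryos against pools. The single-array difference between late Smurf2-/- and late wild-type cells had a median of 1.07 over members in C57B6, with a range of 0.32 to 1.97, and 0.68 in mixed BL, with a range of 0.12 to 1.33. All 41 were above 0 in each background, where 62.8% and 42.7% of all genes were. The C57B6 difference was the larger in 35 of 41 members, against 63.4% of all genes. The 6 members with the larger difference in mixed BL, named after their values were seen, were Bub1b (1.17 against 1.00 in C57B6), Cdca8 (1.14 and 0.89), Cenpa (1.33 and 0.80), Nusap1 (0.51 and 0.42), Tpx2 (0.87 and 0.32) and Anln (0.97 and 0.82). Across the 41 members, which share these arrays, the size in C57B6 and that in mixed BL correlated with r = 0.14. The interaction of genotype with background had a median of -0.25 in the members, mixed BL being lower, with 8 above 0 (39.6% of all genes). Limma called 0 of them and 0% of all genes, and at an unadjusted p under 0.05 found 0 higher (1.65%) and 0 lower (1.53%). The median was 0.16 without the late C57B6 Smurf2-/- array, 0.01 without the late C57B6 wild-type array and 0.06 without the early mixed BL wild-type array. At early passage the pair medians were 0.09 in C57B6, with 30 members above 0 (50.1% of all genes), and 0.02 in mixed BL, with 24 above 0 (52.0%), and 20 members were above 0 in both pairs (28.1% of all genes), 7 below in both (26.0%) and 14 of opposite signs.

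**Figure D3:**
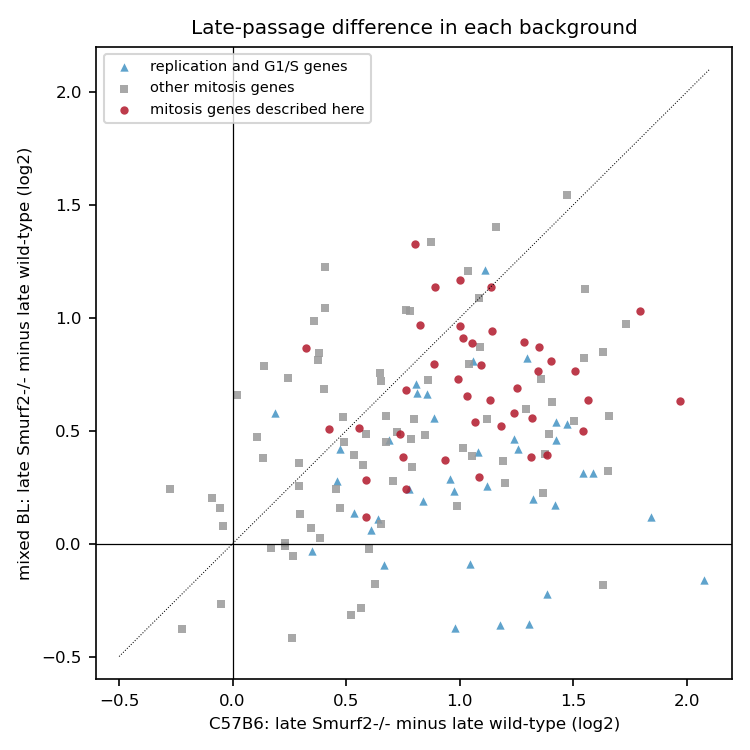
Late Smurf2-/- minus late wild-type log2 difference in C57B6 (x axis) and in mixed BL (y axis), 1 array against 1 in each, for the 41 mitosis genes (red circles), 79 other mitosis genes (grey squares) and 38 replication and G1/S genes (blue triangles). The dotted line marks equal differences; all red circles lie above 0 on both axes, and 35 lie below the line.

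Averaged over both passage classes, the genotype difference had a median of 0.50 in the members, all 41 above 0 against 55.5% of all genes. Without the late C57B6 Smurf2-/- array this median was 0.28, and the passage median given next was 0.20. Limma called 0 of them, against 0.0286% of all genes, and 13 were higher at an unadjusted p under 0.05, against 3.14%, and 0 lower, against 4.42%. The count of 13 was 2 or 3 without any 1 of the 4 late arrays, 24 without the early C57B6 Smurf2-/- array and 27 without the early mixed BL wild-type array. Late against early passage, over both genotypes, had a median of 0.39 with 41 above 0 (57.5% of all genes), 0 called (0.0171%) and 7 higher at an unadjusted p under 0.05 (6.95%), a count of 4 without any 1 of the Smurf2-/- arrays and 20 without the late C57B6 or the early mixed BL wild-type array. Mixed BL against C57B6 had a median of -0.13, which became 0.06 when the late C57B6 Smurf2-/- array was left out and -0.27 when the early mixed BL wild-type array was, with 7 above 0 (51.7%), 0 called (0.08%) and, at an unadjusted p under 0.05, 0 higher (6.85%) and 0 lower (6.62%). Leaving out the late Smurf2-/- array of C57B6 gave a late genotype median of 0.67, and leaving out that of mixed BL gave 1.08, with all 41 members above 0 in each case.

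Other genes of the same pathway, from a list that held none of the members, were set beside them; the members were chosen with earlier results known, so the lists are described and not tested against each other. Of 79 other mitosis genes 75 were higher in late Smurf2-/- cells (56.2% of all genes), with a median of 0.61, and 53 were so at an unadjusted p under 0.05 (6.39%); limma called 0. The smallest p-values were those of Ska3 and Kntc1, which link kinetochores to microtubules and to the checkpoint, at 1.51 ± 0.12 and 1.28 ± 0.10, and of the condensin gene Ncapd2 and the centromere gene Cenpi, at 1.34 ± 0.14 and 1.09 ± 0.13 (limma adjusted p from 0.101 to 0.123). Ska3 stood at -0.26, -0.37, 0.16 and -0.30 in wild-type cells, -0.10 and 0.10 in early Smurf2-/- cells, and 1.10 and 1.24 in late Smurf2-/- cells. The late Smurf2-/- values of Ska3 were above all the others in each background. The 4 genes below 0, named after their values were seen, were the APC/C core subunit genes Anapc2, Anapc10 and Anapc4 at -0.30 ± 0.13, -0.16 ± 0.11 and -0.02 ± 0.16, and Cenpl at -0.08 ± 0.18. Both late Smurf2-/- arrays were above the other 6 in 52 of the 79 (65.8%), against 10.3% of all genes.

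Subunits of the complexes that act on CHR and CCAAT elements had smaller values. Among 15 genes of DREAM, MuvB and NF-Y, 12 were higher in late Smurf2-/- cells (80.0%, against 56.2% of all genes), median 0.17, 4 of them at an unadjusted p under 0.05 (6.39% of all genes) and 0 called by limma. These were the MuvB genes Lin9 and Lin54, the latter the subunit that binds the CHR, at 0.56 ± 0.10 and 0.62 ± 0.14, the E2F partner Tfdp1 at 0.55 ± 0.13 and E2f4 at 0.36 ± 0.12 (limma adjusted p from 0.143 to 0.332). Lin54 stood at -0.10, -0.05, 0.05 and -0.19 in wild-type cells, -0.20 and 0.15 in early Smurf2-/- cells, and 0.36 and 0.63 in late Smurf2-/- cells. Its late Smurf2-/- arrays were the highest in either background. Members with a CHR in the promoter window had a median late difference of 0.90 (29 genes) and those without 0.97 (5 genes), and members with a CCAAT box 0.96 (26 genes) and those without 0.71 (8 genes), with overlapping ranges (0.35 to 1.41 with a CHR and 0.47 to 1.30 without).

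Replication and G1/S genes, the programme of the preceding cell cycle phase, were set beside the mitosis genes. All 38 were higher in late Smurf2-/- cells (56.2% of all genes), with a median of 0.71, and 21 were so at an unadjusted p under 0.05 (6.39%); limma called 0. Pole, the leading strand polymerase, and the cyclin E gene Ccne1 led by p at 1.16 ± 0.10 and 0.93 ± 0.10. The polymerase alpha subunit Pola2 followed at 0.74 ± 0.12 and the licensing factor Mcm10 at 0.76 ± 0.13 (limma adjusted p from 0.101 to 0.139 over those named). Ccne1 was not raised in late Smurf2-/- cells, at 0.03 and 0.06, beside -0.015 and 0.20 in early ones. Its low values were in late wild-type cells, at -1.03 in C57B6 and -0.75 in mixed BL, beside -0.11 and 0.015 in early ones. In C57B6 the late pair had a median of 1.05 for the replication genes and 1.07 for the mitosis genes, and in mixed BL 0.28 and 0.68. Above 0 in the mixed BL late pair were 30 of 38 replication genes and 41 of 41 mitosis genes, and both late Smurf2-/- arrays were above the other 6 in 22 of 38 (57.9%) and 39 of 41. This difference between lists was not tested.

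**Figure D4:**
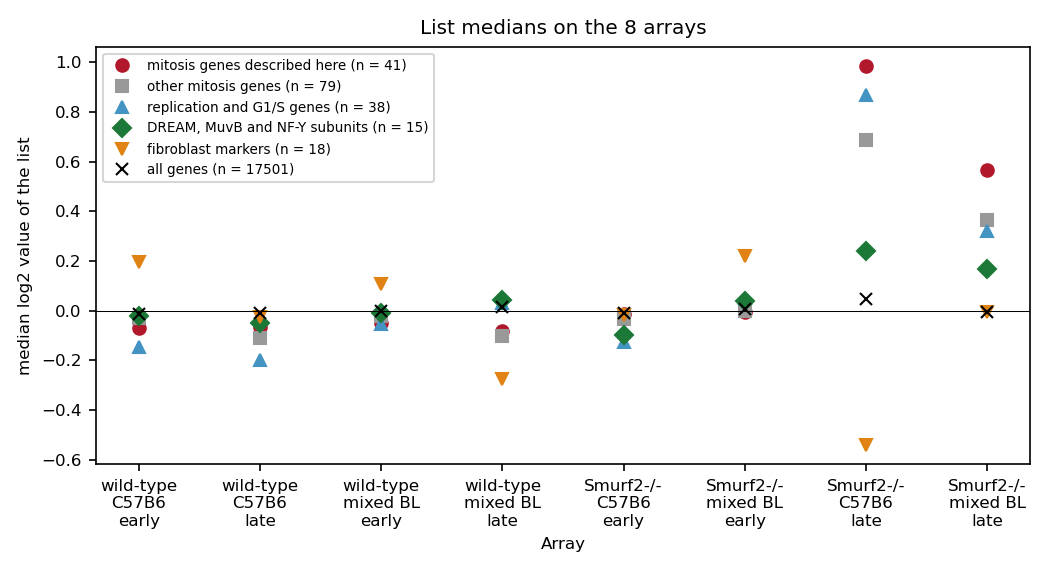
Median log2 value of each gene list (symbols) on each of the 8 arrays (x axis). At late passage without Smurf2, the mitosis genes stand at 0.99 in C57B6 and 0.57 in mixed BL, the replication genes at 0.87 and 0.32, and the fibroblast markers at -0.54 and -0.0052.

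Markers of other kinds were given beside these values. Fibroblast markers had a median of -0.54 on the late C57B6 Smurf2-/- array and between -0.27 and 0.22 on the other 7, with 9 of 18 higher and 9 lower in late Smurf2-/- cells. The 4 with the smallest limma p are given first. The matrix collagen gene Col5a1 was at -1.05 ± 0.24 and the mesenchymal factor Twist1 at 0.78 ± 0.33. Postn, a secreted matrix protein, was at -2.39 ± 1.05 and fibronectin, Fn1, at -0.31 ± 0.14, none called by limma. Most of the Postn difference lay in C57B6, at -4.29 in late Smurf2-/- and -0.17 in late wild-type cells. In mixed BL these values were 0.35 and 1.01. Macrophage, endothelial, epithelial and muscle lists had late medians between -0.03 and 0.08, and the neural list 0.24, with Ncam1 at 1.38 ± 0.46. At early passage the genotype median of the neural list was already 0.51. The part of these marker values, and of the wider spread of the late Smurf2-/- arrays, in the mitosis gene values was not tested.

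Each member was also set against the mean of the other 40 over the 8 arrays. Pearson's r had a median of 0.94 and was over 0.9 in 33 members; it was lowest in Spc25 at 0.71, Nusap1 at 0.76, Hmmr at 0.77 and Tpx2 at 0.78. Outside the members 284 genes, 1.63% of the rest, had r over 0.9 with the members' mean, 31 of the 79 other mitosis genes and 12 of the 38 replication genes among them. Among the 8 most alike were Kif22, a chromosome arm kinesin (r = 0.99), Dgcr6 (0.99), Cdca2, which targets a phosphatase to chromatin (0.99), the centriole kinase gene Plk4 (0.98), the maintenance DNA methyltransferase gene Dnmt1 (0.98), the cyclophilin gene Ppih (0.98) and Pde6d (0.98). Kif22 stood at -0.02, -0.15, -0.05 and -0.04 in wild-type cells, 0.12 and 0.02 in early Smurf2-/- cells, and 1.21 and 0.70 in late Smurf2-/- cells. The 5 most opposed were Nbeal1, Pbxip1, App, which encodes the amyloid precursor protein, Sparc, a secreted matrix protein, and Alkal1, with r from -0.98 to -0.97. Alkal1 stood at 0.08, 0.05, -0.0032 and 0.56 in wild-type cells, 0.0032 and -0.43 in early Smurf2-/- cells, and -2.79 and -2.26 in late Smurf2-/- cells. These r values describe the 8 arrays and carry no test. They rest largely on the late Smurf2-/- arrays, where the members' mean was 0.99 in C57B6 and 0.57 in mixed BL. On the other arrays it lay between -0.12 and -0.0025. A gene raised only a little on the late Smurf2-/- arrays can thus have a high r, as Dgcr6 did at 0.30 and 0.14 there.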

How the data were processed

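RNA of 8 MEF samples was labelled with a whole-transcript kit, per the labels' protocols, and read on Affymetrix arrays. The authors deposited log2 values already centred per transcript cluster (largest row median 5e-07 in size). How arrays were normalised and probes summarised is not given in the sources, and the submitters' processing notes list mm8 and mm9 with no role. The deposited log2 values keep no mean level, so no filter on dim clusters was possible. Their single-precision step, read as whole multiples with a tolerance of 6e-08, tells only whether a gene was above 8 on all arrays; by chance 1 in 128 dimmer clusters passes.

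Of 24169 clusters, 19134 had 1 symbol, 1230 several and 3805 none. Symbols came from the platform annotation, updated by gene identifier for 19067 clusters with RefSeq of GRCm38.p6. Clusters were averaged per gene (899 genes had several), giving 17501 genes. All were fitted with limma 3.58.1 in R 4.3.3 (lmFit, eBayes without trend), with Benjamini-Hochberg adjustment over all of them and 0.05 as the threshold. Terms for genotype, background and passage class left 4 residual degrees of freedom; a genotype interaction left 3. The number that ends each title stands for passage class, which pairs the arrays, so the main model holds it as the block. The number of arrays limits the precision. The fit was tested on simulated data, with a change in late Smurf2-/- cells given to 200 genes and none at early passage. For the late genotype difference limma recovered 79 of the 200 at a log2 change of 1 and 171 at a change of 2. It also called 4 and 9 of the other genes. For the interaction it recovered 0 and 155, with 0 and 8 other genes called. On the arrays, the late differences of Xist and Uty, -4.61 and 2.08, were not called (limma adjusted p of 0.101 and 0.0963). Whether the spread in the simulation matched that of the arrays was not tested, so the counts describe the simulation only.

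Members, lists, motifs and naming rule were chosen with earlier results of these data known. Array values are given for Mki67, Top2a, Cdk1, Plk1, Foxm1, the 3 members of each role with the smallest late genotype p, and the 3 members with the smallest late difference. Context lists name up to 4 genes by the same p. The likeness rule named 8 genes with the highest and 5 with the lowest r; 1 of the 8 is not reported here. Alternatives were single clusters, quantile normalisation, median centring, a variance trend, a robust prior, all interactions, no replicate block, and leaving out each array.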

Additional observations from a re-analysis of the deposited data

How the results depend on the processing

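No member was called by limma under any alternative run, which says nothing about stability, since with this few arrays few genes pass the threshold. The late genotype median over members lay between 0.89 and 0.91 under 6 alternatives, and that of the interaction with passage between 0.81 and 0.85. Only quantile normalisation and median centring could move these medians. Single clusters, a variance trend, a robust prior and all interactions could not, given a single cluster per member and a balanced design. When each array was left out, the late genotype median lay between 0.67 and 1.08 and that of the interaction between 0.63 and 0.97. All 41 members stayed above 0 in the late genotype difference. Leaving out arrays gave 0.28 to 0.63 for genotype, 0.20 to 0.52 for passage, 0.53 to 0.97 for passage in Smurf2-/- cells, -0.14 to 0.0498 for passage in wild-type cells, -0.048 to 0.17 for genotype at early passage, -0.27 to 0.06 for background and -0.54 to 0.16 for genotype with background, so the sign of the last 4 medians was not stable. The genotype with background median was 0.16 without the late C57B6 Smurf2-/- array, 0.01 without the late C57B6 wild-type array and 0.06 without the early mixed BL wild-type array. Without the replicate block the genotype, background and genotype with background medians were 0.50, -0.13 and -0.25, and 0 members were called. These medians could not move, since passage class is balanced over genotype and background. Comparisons of passage itself allow no such fit. Counts over all genes moved: 5 for genotype became 0 to 4, 3 for passage 0 to 25, 14 for background 1 to 66 and 1 for early genotype 0 or 1, and 0 to 1, 0 to 2, 1 to 21 and 0 when arrays were left out; the cause was not tested. Promoter shares depended on the window, as given with them.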
